A study of Mus musculus with 12 samples.

Results

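Control liver and control quadriceps muscle of C57BL/6 mice were compared across 18193 genes, to describe the genes that set the tissues apart, the isoforms each used and the RNAs of their mitochondria. The 3 arrays titled as liver controls and the 3 titled as muscle controls were taken from 12 arrays in the series, and the 6 arrays of mutant tissue were left out. The wider series set such controls against mice with a hypomorphic PGC-1beta allele, which encodes a coactivator of transcription. Total RNA of each tissue was labelled with biotin and hybridised to Affymetrix Murine 430 2.0 arrays, which read a gene through 1 or more probe sets. Both groups were control mice of 1 strain, described in the design text as wild type or control, and the labels name no treatment. The labels give no age, sex, diet or hour of collection. Nothing in the labels ties the 3 samples of a tissue to separate mice, and p-values therefore reflect only sample-to-sample spread, possibly technical.

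Liver is made mostly of hepatocytes, which secrete most plasma proteins, build lipoproteins and bile acids, clear ammonia as urea and release glucose to other organs. The mouse quadriceps is built largely of fast-twitch fibres, whose contractile proteins, calcium pump and energy buffers come from gene copies of their own. Both tissues are rich in mitochondria, which in muscle mainly supply ATP for contraction and in liver also oxidise fatty acids to ketone bodies and house the first steps of the urea cycle.

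Intensities were normalised by quantiles over the 6 arrays and taken as log2(intensity + 16), where the added 16 steadies dim probe sets but understates their differences. Each difference below is liver minus muscle on this scale, with the standard error (SE) and adjusted p of a limma fit, and each fold is on the same scale. A gene was called at an adjusted p under 0.05, and called strongly where the difference also reached 3 in size. The deposited median intensity was 27.2 to 40.1 on liver arrays and 20.1 to 22.3 on muscle arrays. Across genes, arrays of 1 tissue correlated with r of 0.969 to 0.973, and a liver array with a muscle array with r of 0.623 to 0.633. The ratio of the 3′ to the 5′ control probe set of Actb, a sign of RNA integrity, was 1.44 to 1.64 in liver against 0.929 to 0.984 in muscle. That of Pcx was 2.33 to 4.21 against 2.63 to 3.36. The tissues therefore did not overlap in the Actb ratio, whose part in the differences was not tested.

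Of the 18193 genes 7766 were called, or 42.7%. Of these 3715 were higher in liver (20.4% of all genes) and 4051 higher in muscle (22.3%). Strong calls were fewer, with 651 genes higher in liver (3.58%) and 494 higher in muscle (2.72%), together 6.29%. In 9463 genes, 52.0%, the 3 liver arrays did not overlap the 3 muscle arrays. A difference between these tissues was thus common, and the counts for each gene list are to be read against these shares. At the extreme, 139 genes read above 160 on every liver array and under 16 on every muscle array, and 118 genes did the reverse. The scaling of the arrays moved the median of all genes, from 0.0042 after quantile normalisation to 0.37 with values as deposited and 0.27 with arrays scaled to their hybridisation spike controls. The split of the calls moved with it, to 6174 genes higher in liver and 2101 higher in muscle with values as deposited, and to 5600 and 2560 with spike scaling. Median centring gave 3980 and 3952, and scaling to the 75th percentile 3822 and 3861. Small differences could thus take their sign or their call from the scaling, and many of these are marked below.

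Both tissue labels were borne out by markers. All 14 measured hepatocyte markers were called higher in liver, by 5.95 to 9.02 with a median of 8.01. All 15 myofibre markers were called higher in muscle, with differences of -5.30 to -9.23 and a median of -8.48. Alb, which encodes serum albumin, read 12017, 12165 and 11244 on the liver arrays and 22.8, 77.5 and 26.9 on the muscle arrays. Myh4, the myosin heavy chain of the fastest fibres, read 11.2, 1.2 and 3.10 on the liver arrays and 13500, 11808 and 12017 on the muscle arrays. In each marker the groups lay apart without overlap. RNA of whole tissue was measured, so fewer cells of a type and less RNA per cell cannot be told apart.

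**Figure D1:**
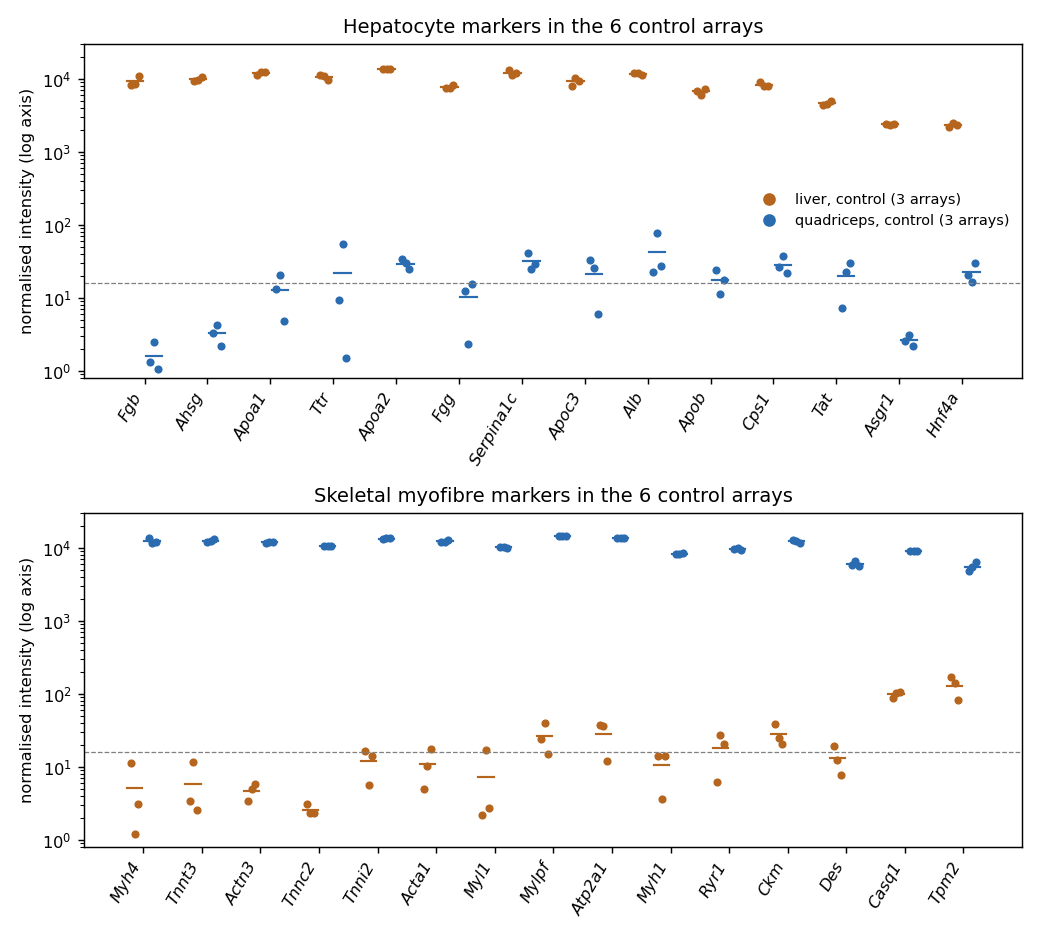
Normalised intensity (log axis) of the hepatocyte markers in the upper panel and the skeletal myofibre markers in the lower panel, with 1 point an array, a bar for the mean of 3 arrays and a dashed line at the offset of 16. Liver arrays read Hnf4a at 2198 to 2472 and muscle arrays at 16.4 to 30.3, and no marker overlapped between the tissues.

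Other cell types of the tissues also left a trace. Of 8 markers of the liver's sinusoidal endothelium 7 were called higher in liver, led by Clec4g, a sinusoidal lectin, at 4.54 (SE 0.27). Of 15 Kupffer cell and macrophage markers 8 were higher in liver and 1 in muscle. These counts were 13 and 0 with values as deposited and 12 and 0 with spike scaling. Clec4f, a lectin of Kupffer cells, differed by 3.85 (SE 0.29), while the general macrophage gene Adgre1 was not called (0.19, SE 0.22). The fibroblast and stellate list went the other way, with 9 of 11 genes higher in muscle. Col1a1, a chain of type I collagen, read 42.9, 20.4 and 13.2 in liver and 5874, 1617 and 5583 in muscle. The exceptions were Reln (2.55, SE 0.23) and Lrat (2.18, SE 0.26), genes known from hepatic stellate cells. Summed over the list, fibroblast markers read 1761 to 2358 on liver arrays and 15271 to 28754 on muscle arrays.

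Of 8 adipocyte markers 4 were higher in muscle, 1 in liver and 3 not called. With values as deposited 3 were higher in muscle and 3 in liver. Adipoq, a hormone of fat cells, read 18.1, 1.67 and 16.3 in liver and 277, 657 and 336 in muscle. Fabp4, the fatty acid carrier of fat and endothelium, differed by -4.73 (SE 0.17). The summed adipocyte list, which Car3 dominates, overlapped between tissues at 9820 to 12114 in liver and 6141 to 12483 in muscle. Among general endothelial markers 6 of 11 were higher in muscle and 2 in liver, and among smooth muscle markers 4 of 6 and 1. The endothelial counts were 2 and 2 with values as deposited and 4 and 2 with spike scaling, so their lean depended on the scaling. Satellite cell markers were higher in muscle in 4 of 7 cases, led by Cdh15 (-2.02, SE 0.21), while Pax7, which defines these stem cells, was not called by the probe set used (-0.20, SE 0.36) and was higher in muscle by the other, at low readings (-1.14, SE 0.27). None of 5 cholangiocyte and none of 10 lymphocyte and neutrophil markers was called by limma. With values as deposited 1 and 3 of them were higher in liver. Of 3 red cell markers 1 was higher in liver, 1 in muscle and 1 not called. They were Alas2, the haem synthesis enzyme of red cell precursors (4.90, SE 0.51), the anion exchanger Slc4a1 (-0.82, SE 0.28) and the globin gene Hba-a1 (-0.04, SE 0.26). The last 2 were dim, with Slc4a1 at 1.43 to 34.4 and Hba-a1 at 14 to 33.5 over the 6 arrays. Slc4a1 was not called by its other probe sets (0.07 and 0.22), nor higher in muscle with values as deposited or spike scaling. Red cell content is therefore not settled by these markers. Of 5 pancreatic acinar markers 2, both elastases, were higher in liver, Cela1 (4.31, SE 0.20) and Cela2a (0.99, SE 0.34), and 3 were not called. The acinar gene Ctrb1 read 2.55 to 9.37 on all 6 arrays. How much of each difference below came from these other cells was not tested.

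The genes most set apart in liver included plasma proteins and intracellular enzymes. The 15 largest differences included Fabp1, the liver fatty acid binding protein, at 9.07 (SE 0.20), the fibrinogen chain Fgb at 9.02 (SE 0.13) and the plasma protein Ahsg at 9.01 (SE 0.10). Fgb read 8301, 8480 and 10839 in liver and 1.32, 2.45 and 1.05 in muscle (limma adjusted p = 7.45e-11). Plasminogen, from Plg, read 7733, 8269 and 7928 in liver and 2.03 to 2.18 in muscle. The rest of the 15 were Ces1c, Apoa1, Ambp, Gnmt, Arg1, Pzp, Apoc4, Serpina1b, Cyp1a2, Akr1c6 and Ttr, with differences of 8.40 for Ttr to 8.82 for Ces1c. Their order has little meaning, since most muscle readings lay under the offset of 16 and other probe sets of Apoa1 (9.30 to 9.36) and Ttr (9.25) differed by more than Fabp1. They comprise lipoprotein and plasma proteins, protease inhibitors and enzymes of detoxification and amino acid breakdown. Serpina1b belongs to a family of near-identical copies, and how far its probes bound the RNA of the others was not tested.

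All 19 measured genes of coagulation and fibrinolysis were called higher in liver, with a median of 6.67, as were all 16 of complement (5.70) and all 20 acute phase and plasma proteins (6.96). These lists were chosen as known liver products, so their direction is a description of the tissue. Mbl2, the mannose-binding lectin that starts a complement pathway, read 3936, 4102 and 3274 in liver and 1.95, 16.2 and 2.85 in muscle. Of 17 genes of apolipoproteins and lipoprotein assembly 16 were higher in liver, with a median of 7.56. The exception was Pltp, the phospholipid transfer protein, which read 328, 273 and 359 in liver and 505, 419 and 597 in muscle. It was 1.55-fold higher in muscle (-0.63, SE 0.15, limma adjusted p = 0.00815), and at 0.028 with values as deposited, so its direction depends on the scaling. Among 16 hepatokines and growth factors 14 were higher in liver, such as Hamp, the iron hormone hepcidin (6.91, SE 0.11). Fgf21, a hormone of the fasted liver, read 46.7, 40.8 and 34.8 in liver and 5.25, 19.9 and 28.3 in muscle and did not pass (limma adjusted p = 0.055).

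Of 18 transcription factors of liver 17 were higher in liver, with a median of 3.72. The nuclear receptor Hnf4a, which many hepatocyte genes need, differed by 5.95 (SE 0.15), Nr1i3, the xenobiotic receptor CAR, by 5.79 (SE 0.17), and Cebpa by 4.59 (SE 0.19). Rora, a receptor that acts on clock and lipid genes, was 2.03-fold higher in muscle (-1.02, SE 0.12). That call was lost with values as deposited, and some of the other probe sets of Rora were not called.

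Promoters of strongly liver-high genes were read for motifs of these factors, in RefSeq windows of the GRCm38.p6 assembly from 250 bases before to 50 bases after each transcription start, on both strands. Windows were found for 14452 of 18193 genes, and for 512 of the 651 strong liver genes. The HNF1 motif GTTAATNAT was in 4.03% of 645 windows of strong liver genes, 0.187% of 534 windows of strong muscle genes and 0.591% of all 18109 windows. The HNF4 motif CAAAGTCCA was in 2.79%, 0.749% and 0.491%. The C/EBP motif TTGCGCAA was rare in each, at 0.155%, 0% and 0.237%. The genes with an HNF1 match, 26 in all, included Pzp, Fga, Alb, Slco1b2, G6pc and Gckr, and the 16 with an HNF4 match included Cyp8b1. Shown are 4 of them that are named here for their products, with the 100 bases before the start, 5′ to 3′ on the strand of the gene, and the motif match in capitals.
Alb: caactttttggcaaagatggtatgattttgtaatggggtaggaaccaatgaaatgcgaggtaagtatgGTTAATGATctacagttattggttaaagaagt
Fga: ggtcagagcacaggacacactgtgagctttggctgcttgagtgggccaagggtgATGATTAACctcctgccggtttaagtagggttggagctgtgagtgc
Slco1b2: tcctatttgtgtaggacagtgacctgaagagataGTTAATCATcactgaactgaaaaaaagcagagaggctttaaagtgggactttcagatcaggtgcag
Cyp8b1: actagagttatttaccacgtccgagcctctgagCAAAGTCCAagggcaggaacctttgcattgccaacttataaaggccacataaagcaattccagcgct
The windows lie at chr5:90460770-90460869 on the plus strand for Alb, chr3:83026053-83026152 on the plus strand for Fga, chr6:141629418-141629517 on the plus strand for Slco1b2 and chr9:121916306-121916405 on the minus strand for Cyp8b1. The HNF1 match began 32 bases before the start in Alb, 46 in Fga, where it reads on the other strand, and 66 in Slco1b2. A match is a stretch of letters and not evidence of binding.

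Metabolic genes of liver were called together. Of 21 genes of bile acid synthesis and transport 20 were higher in liver, with a median of 5.47. Slco1b2, an uptake carrier of bile acids, read 3775, 4244 and 4759 in liver and 15.4 to 17.8 in muscle. Cyp8b1, which shapes the bile acid pool by making cholic acid, varied between liver arrays at 4400, 4187 and 1974 and read 9.13 to 26.9 in muscle. All 29 measured genes of the urea cycle and amino acid breakdown were higher in liver (median 6.21). Arg1, the enzyme that releases urea, read 7343, 7425 and 7599 in liver and 1.70 to 4.18 in muscle, and Cps1, which fixes ammonia, differed by 7.57 (SE 0.14). Of 37 cytochrome P450 genes 34 were higher in liver and none in muscle, such as Cyp1a2 (8.44, SE 0.20) and Cyp3a25 (8.02, SE 0.13). The inducible Cyp1a1, which responds to aromatic pollutants, was dim in both tissues at 34.2 to 56.3 and not called. Of 35 conjugation enzymes 32 were higher in liver. The 2 exceptions were glutathione transferases, Mgst3 (-3.22, SE 0.15) and Gstm5 (-2.24, SE 0.11), which were higher in muscle.

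Lipid synthesis was also a liver feature, though each tissue had its own isoforms. All 18 genes of cholesterol synthesis and uptake were higher in liver, by 0.97 to 6.38, such as Msmo1, a demethylase of the sterol pathway (6.38, SE 0.18). Of 24 genes of fatty acid and triglyceride synthesis 18 were higher in liver and 4 in muscle. The desaturases Fads1 (4.92, SE 0.10) and Fads2 (5.13, SE 0.23), which make polyunsaturated fatty acids, were among the 18. Acacb, the acetyl-CoA carboxylase that controls entry of fatty acids into mitochondria, read 157, 79.3 and 15.5 in liver and 942, 1172 and 924 in muscle. Acaca, the carboxylase of lipogenesis, was 2.18-fold higher in liver (1.12, SE 0.13). Scd2, a desaturase, was higher in muscle (-2.61, SE 0.23).

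For glucose output, Pck1, G6pc and Fbp1, 3 regulated steps of gluconeogenesis, were strongly higher in liver. Pck1 read 5034, 5017 and 5807 in liver and 25.5, 93.0 and 23.7 in muscle, and G6pc 1262, 1960 and 887 in liver and 2.05 to 3.90 in muscle. Among enzymes that gluconeogenesis shares with other pathways, Got2 (0.01, SE 0.10) and Mdh1 (0.06, SE 0.10) were not called after quantile normalisation. Mdh2, also of the TCA cycle, was 3.85-fold higher in muscle. Of all 13 genes of the list 6 were higher in liver and 2 in muscle, with a median of 0.15. With values as deposited (0.95) and with spike scaling (0.78) 10 were higher in liver and 2 in muscle, so which members were not called depended on the scaling. Of 6 genes of ketone body synthesis and use 3 were higher in liver, 1 in muscle and 2 not called. The largest difference in each direction was that of Bdh1 and of Oxct1. Bdh1, which makes hydroxybutyrate, read 2408, 2982 and 2802 in liver and 39.9 to 48.1 in muscle. Oxct1, which activates ketone bodies for use as fuel, read 21.2, 45.6 and 25.8 in liver and 4513, 3744 and 4454 in muscle. The first differed by 5.51 (SE 0.12) and the second by -6.53 (SE 0.18), with no overlap in either. Of 20 genes of branched-chain amino acid breakdown 14 were higher in liver and 4 in muscle. Bckdk, the kinase that shuts off the pathway's dehydrogenase, was 9.51-fold higher in muscle (-3.25, SE 0.15), and Ppm1k, the phosphatase that turns it on, 6.96-fold higher in liver (2.80, SE 0.23).

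Contractile proteins of fast fibres led the genes of muscle. All 15 fast isoforms were called higher in muscle, with a median of -8.53. The 15 largest differences in that direction were Myh4 at -9.23 (SE 0.17), Tnnt3, Actn3, Tnnc2, Mybpc2, Pgam2, Actc1, Tnni2, Acta1, Myl1, Ldb3, Tpm1, Mylpf, Trdn and Mb at -8.41 (SE 0.12). Tnnc2, the fast calcium-binding troponin, read 3.05, 2.32 and 2.32 in liver and 10635, 10635 and 10715 in muscle. Actn3, an α-actinin found in fast fibres, read 3.37, 4.95 and 5.78 in liver and 11808, 12017 and 12165 in muscle. These readings were even between arrays, with no muscle array apart. Myh1 and Myh2, the heavy chains of the less fast IIX and IIA fibres, differed by -8.33 (SE 0.17) and -6.73 (SE 0.24). Actc1, the actin named for the heart, is nearly identical in protein sequence to Acta1, and how far their probes shared RNA was not tested.

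The slow fibre isoforms gave another picture. Of 14 measured 6 were called higher in muscle, 2 higher in liver, and 6 were not called. Myh7, the slow and cardiac myosin heavy chain, read 5.50, 23.5 and 7.10 in liver and 18.6, 6.10 and 15.9 in muscle. The slow troponins Tnnt1 (0.09, SE 0.34), Tnnc1 (0.07, SE 0.21) and Tnni1 (-0.53, SE 0.27) were not called either. In these quadriceps samples 4 defining slow genes were therefore not above liver by this test, while Mybpc1 (-7.50, SE 0.18) and Actn2 (-5.69, SE 0.32), which fast fibres also make, were. The light chains Myl2 (-0.77, SE 0.25) and Myl3 (-1.43, SE 0.22) were higher in muscle at low readings, 35.6 to 63.9 and 47.3 to 62.4. Atp2a2, the calcium pump of slow fibres and of most other cells, was 5.09-fold higher in liver by its brightest probe set (2.35, SE 0.13). Of its other probe sets 2 were called higher in muscle (-0.81, SE 0.11, and -0.88, SE 0.23) and 2 higher in liver (0.96, SE 0.19, and 1.13, SE 0.28), so Atp2a2 has no single direction. The list median was -0.32, and turned to 0.027 with values as deposited and to 0.069 with a filter at the 60th percentile of intensity.

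Of 41 genes of the sarcomere and its Z-disc 37 were higher in muscle (median -6.06) and 1 in liver. That 1 was Csrp3, the muscle LIM protein of the Z-disc, which read 345, 407 and 290 in liver and 44.7, 108 and 125 in muscle. It differed by 1.82 (SE 0.29, limma adjusted p = 0.000673) and has a single probe set on the array, so no other reading of it could be set beside this. Of 23 genes of calcium release and uptake 20 were higher in muscle (median -6.20), such as the release channel Ryr1 (-8.22, SE 0.21) and the buffer Pvalb (-7.54, SE 0.10). Among 18 genes of the dystrophin complex and membrane repair 15 were higher in muscle. Sgca, a sarcoglycan of striated muscle, read 3.60, 8.40 and 5.58 in liver and 1820, 1845 and 1803 in muscle, whereas Sntb1, a syntrophin of many tissues, was higher in liver (3.21, SE 0.23). At the neuromuscular junction, where a nerve drives the fibre, 9 of 13 genes were higher in muscle and 1 in liver. The chloride channel Clcn1 differed by -4.59 (SE 0.22), and Chrng, a receptor subunit of fetal muscle, read 1.58 to 12.3 on all 6 arrays.

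Of 19 myogenic and muscle transcription factors 15 were higher in muscle (median -2.83). Mef2c, which drives contractile genes, read 29.9, 26.9 and 43.1 in liver and 4262, 4250 and 4342 in muscle. Among the 4 myogenic bHLH factors, Myf6 (-4.82, SE 0.26) had the largest difference, followed by Myod1 (-2.83, SE 0.17), Myog (-1.37) and Myf5 (-0.66), all called. Hand2, a factor of heart and limb, was higher in liver at low readings (1.00, SE 0.30). In the list of muscle growth and atrophy 12 of 18 genes were higher in muscle, among them the ubiquitin ligases Trim63 (-5.86, SE 0.15) and Fbxo32 (-4.69, SE 0.36), which tag muscle protein for breakdown. Klf15 (2.28, SE 0.25) and Foxo1 (1.05, SE 0.13), factors that act on such genes in fasting, were higher in liver.

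Promoters of strong muscle genes were read for muscle motifs in the same way, with windows for 387 of 494 genes. The MEF2 box, searched by its name's consensus, was in 6.55% of 534 windows of strong muscle genes, 2.33% of windows of strong liver genes and 2.10% of all windows. The CArG box of serum response factor was in 3.56%, 1.86% and 1.35%. The MyoD E-box CAGCTG, which reads the same on both strands, was in 24.3%, 14.6% and 16.4%. The TATA box TATAAA was more frequent than in all windows (9.77%) in both strong sets, at 16% in liver and 13.5% in muscle, and a MEF2 box can contain its letters. Myh4, Pgam2 and Actc1, all among the 15 largest muscle differences, are shown with 200, 150 and 100 bases before the start and with their MEF2, CArG and E-box matches in capitals.
Myh4: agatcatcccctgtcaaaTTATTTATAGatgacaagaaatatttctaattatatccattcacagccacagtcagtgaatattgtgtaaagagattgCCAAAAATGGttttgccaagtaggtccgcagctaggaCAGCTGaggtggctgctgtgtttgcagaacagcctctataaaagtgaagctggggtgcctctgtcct
Pgam2: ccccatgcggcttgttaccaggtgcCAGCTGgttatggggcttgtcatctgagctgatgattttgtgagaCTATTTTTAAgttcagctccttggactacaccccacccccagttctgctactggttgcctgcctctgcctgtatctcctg
Actc1: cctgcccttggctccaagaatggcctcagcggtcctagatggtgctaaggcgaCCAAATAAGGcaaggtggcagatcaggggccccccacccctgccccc
The windows lie at chr11:67237612-67237811 on the plus strand for Myh4, chr11:5803797-5803946 on the minus strand for Pgam2 and chr2:114052876-114052975 on the minus strand for Actc1. In Myh4 the MEF2 match began 182, the CArG match 104 and the E-box 67 bases before the start, and in Pgam2 the E-box began at 125 and the MEF2 match at 80.

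Energy buffers and fuel uptake differed between the tissues enzyme by enzyme. Of 16 genes of the creatine and adenylate system 9 were higher in muscle and 5 in liver. Ckm, the creatine kinase of the myofibril, read 38.9, 25 and 20.8 in liver and 12825, 12343 and 11808 in muscle, and its mitochondrial partner Ckmt2 differed by -8.34 (SE 0.15). The creatine carrier Slc6a8 was higher in muscle (-3.64, SE 0.11), and Gamt, the last enzyme of creatine synthesis, in liver (2.21, SE 0.25), while Gatm, the first, was not called (0.03, SE 0.21). Adenylate kinases split too, with Ak1 higher in muscle (-6.75, SE 0.14) and Ak4 in liver (3.36, SE 0.14). Of 14 genes of myoglobin and fatty acid uptake 8 were higher in muscle and 5 in liver. Mb, which holds oxygen in the fibre, read 1.95, 2.55 and 4.13 in liver and 7176, 6348 and 5782 in muscle. Lpl, the lipase that frees fatty acids from lipoproteins, differed by -4.41 (SE 0.16) and the fatty acid carrier Cd36 by -2.14 (SE 0.15). Both, like Fabp4, are also made by fat cells and endothelium, whose markers were given above, and their part was not tested. Slc27a2 (6.84, SE 0.12) and Slc27a5 (7.78, SE 0.20), which activate fatty acids and bile acids, were higher in liver.

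Isozyme and isoform pairs gave a second view, since each pair does 1 job with a form known from liver or most tissues and a form known from muscle. Of 34 pairs written 29 had both genes measured. In 20 the first was called higher in liver and the second higher in muscle, and in 28 of 29 the first leaned more to liver than the second. These counts compare differences, not levels, since probe sets of different genes cannot be set against each other. The second count was 28 under every scaling and with any 1 array left out, and the first was 20 to 22 over these settings and 19 when a gene's probe sets were averaged. The pairs were chosen for their known tissue use, so the counts describe how fully the known forms were separated in these samples.

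**Figure D2:**
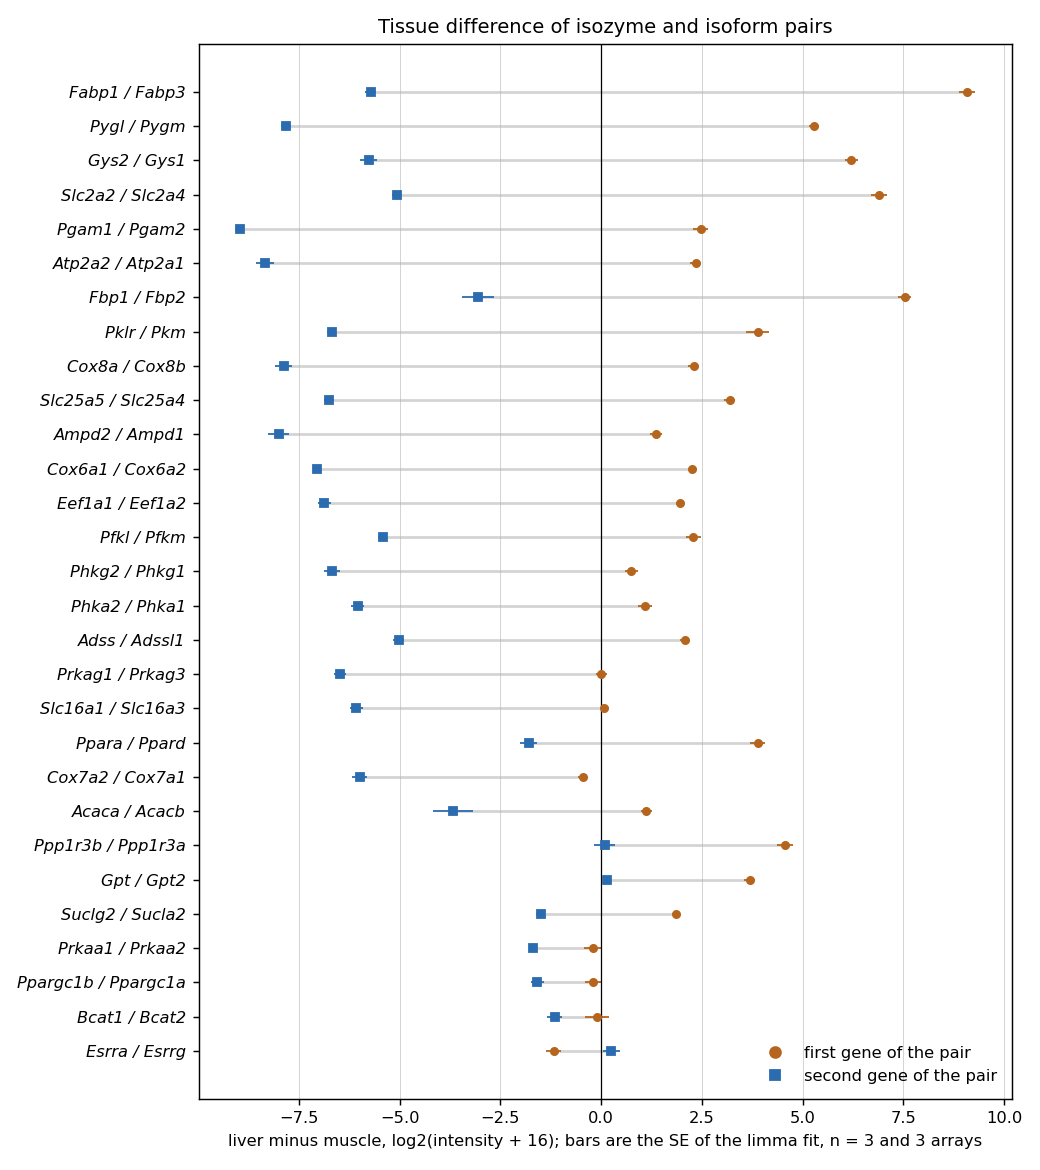
Difference between liver and muscle, log2(intensity + 16), of the first (circle) and second (square) gene of 29 isozyme pairs, with bars for the SE of the limma fit over 3 and 3 arrays. Pygl and Pygm lie at 5.28 and -7.82, and Esrra and Esrrg in the last row are the pair in which the first gene leans less to liver than the second.

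Carbohydrate enzymes made up many of the separated pairs. The glycogen phosphorylases, which free glucose from glycogen, read 2683, 2342 and 2625 in liver and 44.4, 47.5 and 58.0 in muscle for Pygl, and 33.9, 25.9 and 23.0 in liver and 9740, 9824 and 9740 in muscle for Pygm. Their synthases differed by 6.21 (SE 0.17) for Gys2 and -5.76 (SE 0.21) for Gys1. Phosphoglycerate mutase was split between Pgam1 (2.47, SE 0.18) and Pgam2 (-8.97, SE 0.10), pyruvate kinase between Pklr (3.88, SE 0.28) and Pkm (-6.68, SE 0.11), and phosphofructokinase between Pfkl (2.29, SE 0.18) and Pfkm (-5.42, SE 0.11). Glucose entry was split between Slc2a2 (6.90, SE 0.20), the carrier GLUT2 of liver, and Slc2a4 (-5.07, SE 0.12), the insulin-driven GLUT4. Fbp1 (7.53, SE 0.16) and Fbp2 (-3.05, SE 0.41), the fructose bisphosphatases, parted as well, with Fbp2 uneven in muscle at 222, 297 and 538. Of 25 glycolytic genes 16 were higher in muscle and 5 in liver, and of 20 of glycogen metabolism 11 and 6. The hexokinase Hk2 (-5.17, SE 0.16) and the enolase Eno3 (-7.51, SE 0.09) were among the muscle genes, and Gckr, the liver's inhibitor of glucokinase, among the liver genes (4.64, SE 0.22). Of 11 carriers of glucose and lactate 5 were higher in liver, among them Slc16a7 (3.99, SE 0.23), and 4 in muscle.

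Outside carbohydrate, the pairs separated fatty acid binding proteins (Fabp1 9.07, Fabp3 -5.71), calcium pumps (Atp2a2 2.35 by the probe set used, with the split among its probe sets given above, and Atp2a1 -8.34), AMP deaminases (Ampd2 1.37, Ampd1 -8.00), adenylosuccinate synthases (Adss 2.07, Adssl1 -5.03) and translation elongation factors 1A (Eef1a1 1.96, Eef1a2 -6.87). Eef1a1 read 10052 to 11437 in liver and 2625 to 2808 in muscle, so that a factor of nearly all cells was 3.90-fold lower in muscle, whose fibres are known to replace it with Eef1a2. Of the 9 pairs that did not separate, 5 had a first gene that was not called beside a second that was higher in muscle. They were the AMP kinase subunits Prkaa1 and Prkaa2 and Prkag1 and Prkag3, the lactate carriers Slc16a1 and Slc16a3, Bcat1 and Bcat2, and Ppargc1b and Ppargc1a. Prkag1 read 515 to 614 in liver and 470 to 652 in muscle, with a difference of 0.00048 (SE 0.14), while Prkag3 differed by -6.48 (SE 0.15). In 2 pairs the muscle form itself was not called: Gpt2 (0.15, SE 0.11, with another probe set higher in liver at 0.47) beside Gpt (3.68, SE 0.13), which transfer the amino group of alanine, and Ppp1r3a (0.10, SE 0.26), a glycogen-targeting subunit known from muscle, beside Ppp1r3b (4.55, SE 0.20). Ppp1r3a read 35 to 64.5 on all 6 arrays from its single probe set.

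The RNAs of the respiratory chain and ATP synthase were higher in muscle as a group, though by far less than the isoforms above. Of 79 nuclear-encoded subunits 68 were called higher in muscle, 3 higher in liver and 8 were not called. Their median difference was -0.97, or 1.95-fold, with quartiles of -1.23 and -0.56, beside 0.0042 for all genes. Relative to each gene's own mean, the subunits' median was -0.68, -0.33 and -0.41 on the liver arrays and 0.42, 0.52 and 0.47 on the muscle arrays, so every array stood with its tissue. The size depended on the scaling. It was -0.79 at the 75th percentile, -0.62 with median centring, -0.36 with spike scaling and -0.18 with values as deposited, where 16 subunits were called higher in muscle and 8 in liver. Relative to the median of all genes under the same scaling it was -0.82, -0.56, -0.62 and -0.56. The tissue difference of the subunits thus leaned more to muscle than that of the typical gene under each of these scalings. Their absolute excess in muscle was not fixed by these data.

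**Figure D3:**
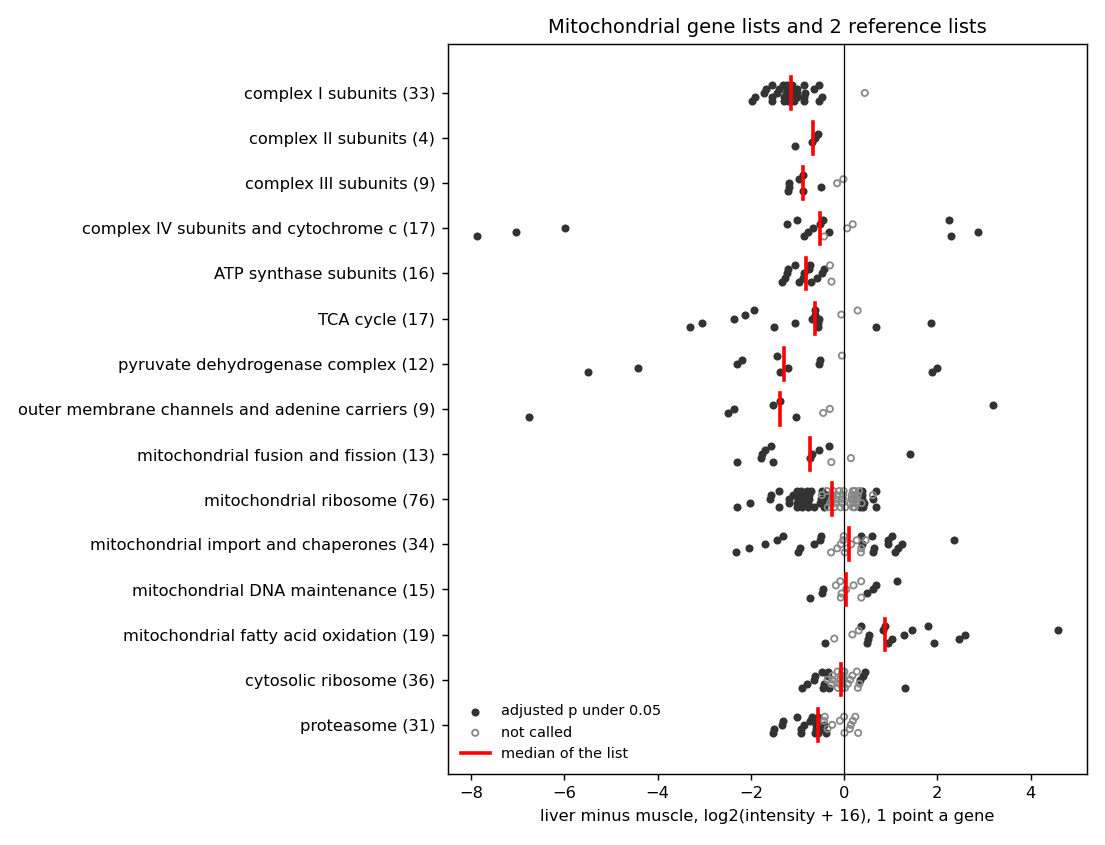
Difference between liver and muscle, log2(intensity + 16), for each gene of 13 mitochondrial lists and of the cytosolic ribosome and proteasome, with filled points for genes called at an adjusted p under 0.05 and a red bar for the median of a list. Complex I sits at a median of -1.15 and mitochondrial fatty acid oxidation at 0.88.

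By complex, 32 of 33 subunits of complex I, which takes electrons from NADH, were higher in muscle (median -1.15). Ndufs1, its largest subunit, read 509, 723 and 673 in liver and 2421, 2594 and 2577 in muscle, a difference of -1.98 (SE 0.14). The 1 not called was Ndufb4, dim on all arrays at 8.43 to 33.5. All 4 subunits of complex II, the succinate dehydrogenase, were higher in muscle (-0.66, which turned to 0.14 with values as deposited). That count was 0 with values as deposited and 1 with median centring, 75th percentile or spike scaling. Complex III, which passes electrons to cytochrome c, had 7 of 9 higher in muscle (-0.89), but 0 with values as deposited, where 1 was higher in liver (-0.13). ATP synthase had 14 of 16 higher in muscle (-0.81), but 2 with values as deposited, where 1 was higher in liver (-0.0099). For complex I 11 were still called higher in muscle with those values (-0.37). Atp5o, a stalk subunit, was 2.51-fold higher in muscle, and Uqcrc1, a core subunit of complex III, 2.32-fold. Complex IV, the oxidase, with cytochrome c, was mixed: 11 of 17 were higher in muscle and 3 in liver (-0.52). With values as deposited 3 were higher in muscle and 5 in liver, and the median turned to 0.059. Cycs, cytochrome c itself, read 2772, 3250 and 3699 in liver and 7715, 7490 and 7383 in muscle.

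In complex IV, subunits that exist in 2 forms were split between the tissues. Cox6a1, of most tissues, read 5745, 6392 and 6420 in liver and 1251, 1180 and 1413 in muscle, and Cox6a2, of heart and muscle, 49.0, 50.5 and 44.8 in liver and 8743, 8584 and 7982 in muscle. Cox8a (2.30, SE 0.13) and Cox8b (-7.88, SE 0.20) were split the same way. Cox7a1, the muscle form of the third such subunit, differed by -5.99 (SE 0.19), but Cox7a2, the general form, was also higher in muscle (-0.46, SE 0.10, limma adjusted p = 0.00554). The small difference of Cox7a2 turned to 0.29 with values as deposited and to 0.12 with spike scaling, so it has no settled direction. Cox6b2, known as a testis form, was the third subunit higher in liver, at 160, 212 and 194 against 2.45, 19.2 and 16.7. The adenine nucleotide carriers, which swap ATP for ADP across the inner membrane, followed the pattern, with Slc25a5 at 3.19 (SE 0.14) and Slc25a4 at -6.75 (SE 0.13). So did the β subunits of succinyl-CoA ligase, with Suclg2, of the GTP form, 3.63-fold higher in liver and Sucla2, of the ATP form, 2.83-fold higher in muscle.

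**Figure D4:**
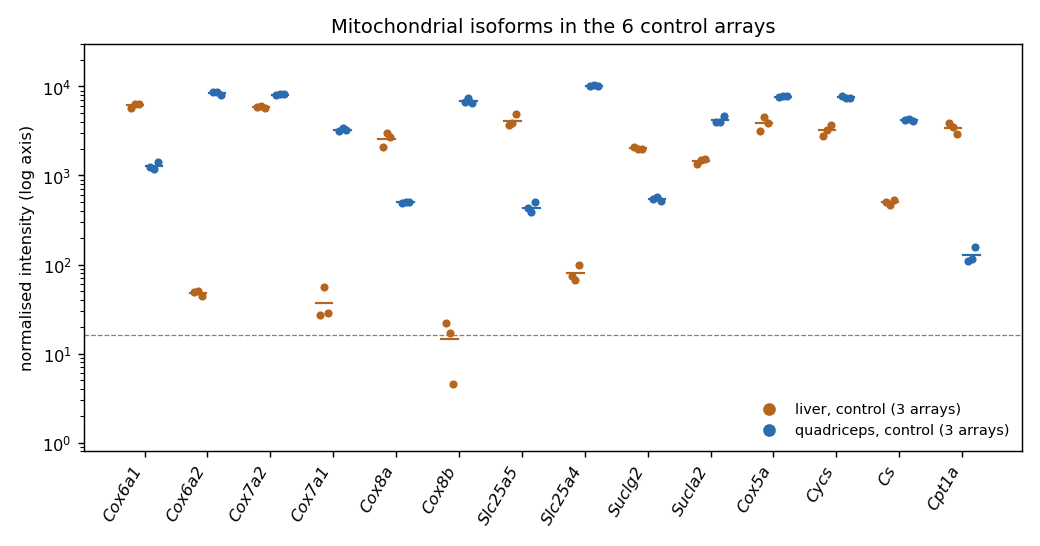
Normalised intensity (log axis) of mitochondrial isoforms and 4 single genes on the 3 liver and 3 muscle arrays, with a bar for each mean and a dashed line at the offset of 16. Slc25a5 reads 3647 to 4850 in liver against 387 to 498 in muscle, and Slc25a4 67.1 to 99.0 in liver and 10151 to 10362 in muscle.

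Fuel oxidation upstream of the chain was not uniform. Of 17 genes of the TCA cycle 13 were higher in muscle and 2 in liver, with a median of -0.63. With values as deposited 6 were higher in muscle and 4 in liver, and the median turned to 0.15. The largest differences were in early steps of the cycle. Cs, citrate synthase, read 501, 463 and 530 in liver and 4236, 4337 and 4058 in muscle. Idh3a, a subunit of the NAD-linked isocitrate dehydrogenase, read 283, 460 and 586 in liver and 4431, 4326 and 4206 in muscle. They differed by -3.04 (SE 0.10) and -3.30 (SE 0.22), and Ogdh, of the next oxidation step, by -2.13 (SE 0.10). Idh2, the NADP-linked form, was 1.60-fold higher in liver (0.68, SE 0.17) but at -0.074 with the mean of all its probe sets, 1 of which was higher in muscle (-0.83). Fh1, the fumarase, was not called (-0.06), and stood at 0.73 with values as deposited and 0.56 with spike scaling. Of 12 genes of the pyruvate dehydrogenase complex 9 were higher in muscle and 2 in liver. The catalytic Pdha1 was 4.57-fold higher in muscle, and the complex's regulators were split by isoform. The kinase Pdk4, which blocks pyruvate oxidation, read 21.4, 21.0 and 23.6 in liver and 1500, 1954 and 1661 in muscle, while Pdk1 was higher in liver (1.98, SE 0.19). The phosphatase Pdp1, which restores it, was higher in muscle (-4.43, SE 0.30) and Pdp2 in liver (1.90, SE 0.22).

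Mitochondrial fatty acid oxidation ran opposite to the respiratory chain. Of 19 genes 15 were higher in liver, 1 in muscle and 3 not called, with a median of 0.88 that was above 0 under each scaling tried. Cpt1a, the liver form of the enzyme that admits fatty acids, read 3904, 3501 and 2919 in liver and 111, 115 and 156 in muscle. The thiolase Acaa2 (2.46, SE 0.12), the isomerase Eci2 (2.60, SE 0.16) and the hydratase Echs1 (1.93, SE 0.11) followed. No muscle form of the entry enzyme is set beside Cpt1a here, so that step as a whole is given no direction. The trifunctional protein stood apart, with Hadha not called (0.18, SE 0.11) and Hadhb 1.34-fold higher in muscle (-0.42, SE 0.11), though at 0.39 with values as deposited and 0.22 with spike scaling. A contrast of lists within an array is free of the array's scaling factor. On that measure the median of the respiratory subunits minus that of fatty acid oxidation, each relative to the genes' own means, was -1.07, -0.82 and -0.88 on the liver arrays and 0.85, 0.92 and 0.95 on the muscle arrays. The tissues differed by -1.85 in this contrast, and by -1.81 under each other scaling. For the TCA cycle minus fatty acid oxidation they differed by -1.51, and by -1.47 under the other scalings.

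Genes that build and maintain the organelle leaned less to muscle than the respiratory subunits. Of 76 mitochondrial ribosomal proteins 33 were higher in muscle and 9 in liver (median -0.25), of 34 genes of import and chaperones 10 and 12 (0.11), and of 15 genes of mitochondrial DNA maintenance 3 and 4 (0.05). The median of the ribosomal list turned to 0.38 with values as deposited and to 0.22 with spike scaling. With values as deposited 23 genes of import and chaperones were higher in liver and 5 in muscle, and with spike scaling 21 and 6. For mitochondrial DNA maintenance 9 were higher in liver and 0 in muscle with values as deposited, and 7 and 0 with spike scaling. The balance of these lists thus depended on the scaling. The respiratory subunits minus each of these lists differed between the tissues by -0.71, -1.08 and -1.01, and by -0.57 to -0.96 under the other scalings. Tfam, which packs and transcribes mitochondrial DNA, was not called by the probe set used (-0.05, SE 0.16) and was higher in liver by another (0.49). Polrmt, the polymerase that transcribes mitochondrial DNA, was 1.65-fold higher in muscle, a call that was lost with values as deposited and with spike scaling. Individual genes departed from their list: Mrpl42 (-2.29, SE 0.11) and the processing peptidase Pmpca (-2.33, SE 0.12) were higher in muscle, and the import factor Timm8a1 (2.37, SE 0.11) in liver. ND5, the 1 mitochondrially encoded gene with a probe set of a single symbol, read 10086, 7867 and 8531 in liver and 9123, 9228 and 9454 in muscle. Its difference was -0.08 (SE 0.13, 95% interval -0.37 to 0.21), and 0.52 with values as deposited, where it was called higher in liver.

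Shape and traffic genes of mitochondria leaned to muscle, by a margin that depended on the scaling. Of 13 genes of fusion and fission 10 were higher in muscle and 1 in liver (median -0.73). With values as deposited 6 were higher in muscle and 2 in liver (-0.085), and with spike scaling 6 and 1 (-0.25). Mfn2, which fuses outer membranes, read 335, 389 and 321 in liver and 1532, 1966 and 1810 in muscle, whereas Opa1, which fuses inner membranes, was read both ways. Its brightest probe set differed by -1.76 (SE 0.10) and another by -0.71 (SE 0.21), while the remaining probe set of Opa1 was higher in liver (0.84, SE 0.20). Among 9 channels and carriers 6 were higher in muscle, led after Slc25a4 by the outer membrane channel Vdac3 (-2.49, SE 0.14) and the uncoupling protein Ucp3 (-2.37, SE 0.18).

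The coactivators and receptors that act on mitochondrial genes gave no single direction. Of 16 measured 6 were higher in muscle, 2 in liver and 8 not called. Ppargc1b, the gene mutated in the rest of the series, read 434, 234 and 386 in control liver and 390, 367 and 431 in control muscle and was not called (-0.21, SE 0.20, 95% interval -0.66 to 0.25). Its relative Ppargc1a read 99.9, 118 and 162 in liver and 379, 388 and 446 in muscle, a 2.99-fold excess in muscle (-1.58, SE 0.17). Esrra, a receptor that PGC-1 proteins work through, was 2.27-fold higher in muscle (-1.18, SE 0.19), and Esrrg was not called by the probe set used (0.25, SE 0.21), while another of its 3 was higher in muscle (-0.91, SE 0.26). Perm1, a muscle regulator induced by PGC-1 and ERR, differed by -4.63 (SE 0.22). Ppara, the receptor that drives fatty acid oxidation in liver, read 1673, 1648 and 1236 in liver and 105, 64.3 and 97.2 in muscle, and Ppard was 3.47-fold higher in muscle.

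Promoters of the respiratory subunits were read for the same motifs and for those of NRF1 and ERR, factors known to act on respiratory genes. Windows were found for 66 of the 79 genes. The palindromic NRF1 motif was in 5.63% of their 71 windows, against 1.54% of all windows, 0.775% of strong liver and 0.749% of strong muscle windows, and the ERR motif TCAAGGTCA was in 2.82%, 0.342%, 0.310% and 0%. No HNF1, HNF4, MEF2 or CArG match lay in the 71 windows, and the TATA box was in 9.86%. For motifs as rare as these, 71 windows would hold few matches at the share of all windows, and no test of the difference was made. The NRF1 and ERR shares rest on few windows, 4 with the NRF1 motif (Cox6a1, Atp5k, Uqcrc1 and Atp5g2) and 2 with the ERR motif (Sdhd and Atp5g3). Cox6a1 is shown with 170 bases before its start, since of the 4 with the NRF1 motif it alone was higher in liver. Its NRF1 match is in capitals.
Cox6a1: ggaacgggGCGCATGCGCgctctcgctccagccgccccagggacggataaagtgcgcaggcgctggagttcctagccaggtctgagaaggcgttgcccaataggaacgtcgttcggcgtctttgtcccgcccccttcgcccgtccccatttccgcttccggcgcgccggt
The window lies at chr5:115348959-115349128 on the minus strand of GRCm38.p6, and the match began 162 bases before the start. Uqcrc1 and Atp5k, which hold the same motif, were higher in muscle (-1.21 and -1.23).

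**Figure D5:**
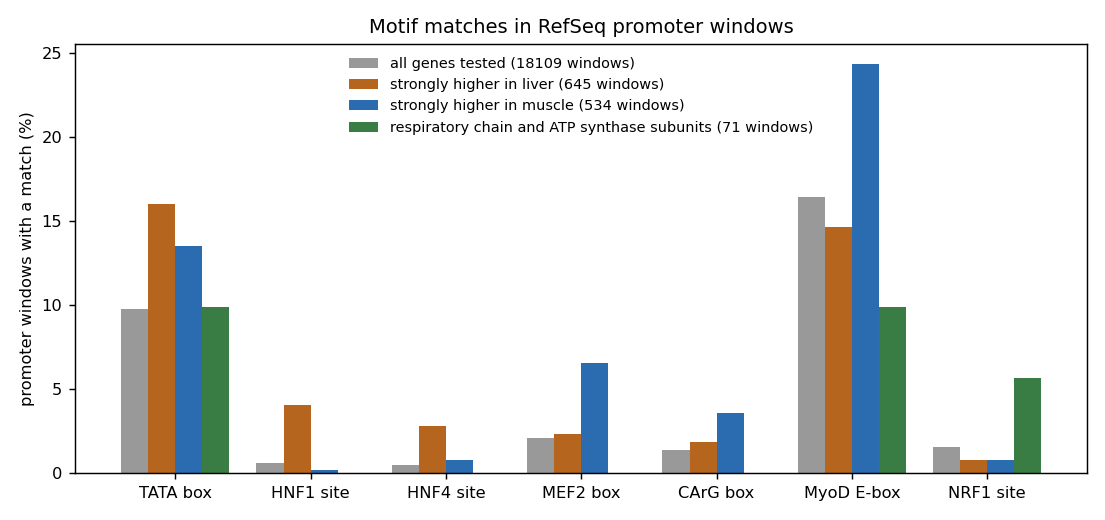
Share of RefSeq promoter windows (%) that hold each of 7 motifs, for all genes tested, genes strongly higher in liver, genes strongly higher in muscle and respiratory subunits. The HNF1 bar is at 4.03% in strong liver genes and 0.187% in strong muscle genes, and the MyoD E-box bar at 24.3% in strong muscle genes and 14.6% in strong liver genes.

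Some genes were read in opposite directions by different probe sets, which lie in different stretches of a gene's transcripts. Of 9010 genes with several probe sets 43, or 0.477%, had 1 called higher in liver and another higher in muscle, each by at least 1. Cobl, an actin nucleator, had a probe set at 161, 130 and 107 in liver and 6.27 to 22.8 in muscle, and another at 3.78 to 9.13 in liver and 557, 513 and 548 in muscle. Pdlim5, a Z-disc protein of striated muscle with short forms elsewhere, had 1 at 296, 339 and 330 in liver and 71.4 to 85.2 in muscle, and another at 10.6 to 25.5 in liver and 3296, 2566 and 3448 in muscle. Exoc3l2, Lrrfip1 and Epb41l4b showed like splits, with -3.98 to -4.73 for the muscle probe set of the first 2 and 3.88 for the liver probe set of the third. The rest of the 10 clearest were Caprin1, Pde4dip, Slc16a10, Dnajb6 and Slc44a1. Of 1081 genes on the lists 3 were in this group, Pdlim5, Smyd1 and Tpm3, so that 1 difference for such a gene does not describe all its probe sets. Where in a transcript each probe set lies was not analysed here.

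A small share of genes hardly differed, with a 95% interval inside -0.58 to 0.58 in 2385 genes (13.1%). The 6 brightest were Tpt1, Uqcrb, ND5, Fth1, Atp5g3 and Actb, though another probe set of Tpt1 was higher in liver (1.04) and another of Uqcrb higher in muscle (-0.74). Fth1, the ferritin heavy chain, read 8153, 8123 and 7535 in liver and 8785, 8785 and 8584 in muscle. Actb, the actin of the cytoskeleton, read 6814, 7129 and 7129 in liver and 7383, 6610 and 8086 in muscle (-0.06, SE 0.12), and stood at 0.72 with values as deposited and 0.54 with spike scaling. Among 36 cytosolic ribosomal proteins 22 were not called, 10 were higher in muscle and 4 in liver, with a median of -0.08. That median was between 0.027 and 0.64 under the other scalings, so no direction is given for the ribosome.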

How the data were processed

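Total RNA of control liver and control quadriceps was read on Affymetrix Murine 430 2.0 arrays, 3 a tissue. The deposited values are linear probe set intensities, 1 value per probe set and array. The labels' protocols name d-Chip only for clustering, and no source used here states the probe summary or its scaling. Control probe sets (64 of 45101) were left out of the tests. Of the other 45037 probe sets, 34945 had 1 gene symbol, 932 several and 9160 none in GEO's platform annotation, and 1 probe set a gene, that with the highest mean log2 value, gave 18193 genes.

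Intensities of the 6 arrays were quantile-normalised together and fitted as log2(intensity + 16) with limma 3.58.1 in R 4.3.3 (lmFit, eBayes with a variance trend, 4 residual degrees of freedom), with Benjamini-Hochberg adjustment over all genes and no filter. The fit was tested on simulated data. Python 3.11.15 with matplotlib 3.10.9 drew the figures. The members, gene lists and pairs were chosen with earlier results of these data known, so no list is independent evidence of its direction. Of 1278 list entries 1144 (89.5%) matched a measured gene. Named genes are the 15 largest differences each way without overlap, all pairs, all members of chosen lists, up to 4, 2 and 2 genes of each other list (with its median, against it and not called), the 10 clearest opposite probe sets and the 6 brightest genes that hardly differed. Cyp8b1, Atp5g2, Atp5k and Atp5o were chosen after their values were seen. Alternatives were other scalings, offsets, filters, probe set rules, array weights, a replicate block and leaving out each array. Scaling to the spike controls was added after seeing the data. The number of arrays limits the precision.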

Additional observations from a re-analysis of the deposited data

How the results depend on the processing

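Strong calls came to 1137 to 1211 under the other scalings, against 1145, while small differences followed the scaling. Genes called came to 7004 to 7219 with any 1 array left out, against 7766. Genes higher in liver and in muscle came to 6174 and 2101 with values as deposited and to 5600 and 2560 with spike scaling. Taking each probe set on its own gave 13937 calls (6488 and 7449), with 1853 strong ones (1032 and 821), by construction over more features. A test against a difference of 1 (treat) left 2806 (1409 and 1397). An offset of 64 left 752 strong calls, 295 of them in muscle, and an offset of 1 gave 1577, so their number depended on the offset. The respiratory median was -0.18 as deposited, -0.62 with median centring, -0.79 at the 75th percentile and -0.36 with spike scaling, and -1.01 to -0.84 with any 1 array left out. Among the lists, medians that turned positive with values as deposited included those of cholangiocyte (0.23), red cell (0.36) and acinar markers (0.028), and of slow fibre isoforms (0.027, and 0.069 with the filter at the 60th percentile), complex II (0.14), complex IV (0.059), the TCA cycle (0.15), the mitochondrial ribosome (0.38, spike 0.22), coactivators (0.25, spike 0.11), insulin signalling (0.18, spike 0.019), the cytosolic ribosome (0.64, median centring 0.20, 75th percentile 0.027, spike 0.46), the proteasome (0.21, spike 0.039) and the clock (0.17, spike 0.015). Single genes that turned were Actb (0.72, spike 0.54), Atp5g2 (0.054), Atp5g3 (0.47), Cox7a2 (0.29, spike 0.12), Fh1 (0.73, spike 0.56), Fth1 (0.57), Hadhb (0.39, spike 0.22), ND5 (0.52), Pltp (0.028) and Sdhd (0.22, spike 0.052), and with the mean of all probe sets Idh2 (-0.074), Slc44a1 (-0.20) and Tpt1 (0.37). Beyond the scaling itself the cause was not tested. Arrays share replicate numbers across tissues, and the labels do not say whether a number stands for 1 mouse. Same-numbered arrays deviated together with r of -0.016, -0.0036 and 0.0063, and differently numbered ones with r of -0.014 to 0.017. Such correlations between 2 unlike tissues cannot settle whether arrays of a number share a mouse. The replicate block gave 7528 calls (3586 and 3942).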

Other observations

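Gene groups outside the comparisons above differed too. Of 27 genes of endoplasmic reticulum folding and export 21 were higher in liver and 3 in muscle, with a median of 1.41. Creb3l3, a membrane-bound factor of liver, read 2705, 2792 and 2130 in liver and 74.2, 34.1 and 50.1 in muscle, and Xbp1, a factor of secretory cells, was 5.58-fold higher in liver (2.48, SE 0.16). Of 24 peroxisomal genes 21 were higher in liver and 2 in muscle, with Acaa1b, a thiolase, at 7.86 (SE 0.11). Abcd2, a peroxisomal carrier of long fatty acids, went the other way (-2.08, SE 0.22). Of 20 antioxidant enzymes 11 were higher in liver and 2 in muscle. Cat, the catalase of peroxisomes, read 6446, 5839 and 6535 in liver and 252, 356 and 330 in muscle. Gpx3, the secreted glutathione peroxidase, read 48.5, 39.0 and 7.92 in liver and 1546, 1728 and 1219 in muscle. Of 31 proteasome subunits 19 were higher in muscle and none in liver (median -0.55), a direction that turned with values as deposited (0.21) and with spike scaling (0.039).

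Of 21 insulin signalling genes 11 were higher in muscle and 6 in liver, with a list median of -0.45 that turned to 0.18 with values as deposited and 0.019 with spike scaling. Irs1, a substrate of the insulin receptor, read 188, 241 and 208 in liver and 2010, 1995 and 2183 in muscle, and Tbc1d4, which gates glucose carriers, differed by -2.79 (SE 0.29). Grb14, an inhibitor of the receptor, was 3.36-fold higher in liver (1.75, SE 0.16), and its relative Grb10 6.79-fold higher in muscle (-2.76, SE 0.17). Of 15 clock genes 7 were higher in muscle and 3 in liver, and the list median of -0.48 turned to 0.17 with values as deposited and 0.015 with spike scaling. Nr1d1 was uneven in muscle at 912, 413 and 532, against 248, 164 and 272 in liver, and Dbp read 1506, 1866 and 1876 in liver and 1054, 1111 and 1098 in muscle. The labels do not state the hour of collection.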
